A study of Arabidopsis thaliana with 9 samples.

Results

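In the small RNA libraries of 2 Arabidopsis thaliana mutants, 32 nuclear loci on the chromosome arms held fewer reads in every mutant library than in every control library. They are 32 of the 37336 loci listed, and were chosen by their values. With x as normalized reads + 1, the lowest Col-0 (LUC) x had to be at least 1.3 times the highest x of the 6 mutant libraries. Mean Col-0 (LUC) reads had to reach 10, and the mean x of the mutants had to lie within 2-fold of each other. Loci numbered within the pericentromeric ranges of each chromosome, and AT3G25795, a trans-acting siRNA locus, were left out. All differences between genotypes at these 32 loci are therefore a description, and no test is given for them.

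Plant small RNAs are cut by Dicer-like enzymes from double-stranded or hairpin RNA and loaded into Argonaute proteins. MicroRNAs and trans-acting siRNAs guide the silencing of messenger RNAs, and heterochromatic siRNAs guide methylation of matching DNA, mostly at transposons and repeats. Where transcripts from both strands of a locus meet, siRNAs can form from the paired RNA. Protein-coding genes usually yield few small RNAs, part of which are fragments of their transcripts.

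The study asked how small RNA accumulation in the mutants prors1 (LUC) and rls6 compares with that in Col-0 (LUC), with 3 libraries per genotype; Col-0 (LUC) is called the control below. Plants grew on soil in long days, and RNA of 17 to 30 nt was taken from a gel. Col-0 is the standard laboratory accession, and PRORS1 encodes a prolyl-tRNA synthetase of the organelles. The labels leave out what LUC marks and which change rls6 carries, and the source label names the mutants rbp-ko-1 and rbp-ko-2 in place of prors1 (LUC) and rls6. The labels name no treatment, the age of the plants is 25 days in the protocol and 26 days in the source label, and the labels do not say whether the libraries are of different plants. The p-values below measure only the spread between these libraries. Fewer cells of a type and less RNA per cell cannot be told apart in such bulk samples.

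The libraries held 611238 to 702303 reads over the listed loci, and 4766 loci had enough reads to be tested. In limma fits across those loci, 316 (6.63%) were lower and 369 (7.74%) higher in prors1 (LUC) than in Col-0 (LUC), at an adjusted p under 0.05. In rls6, 236 (4.95%) were lower and 605 (12.7%) higher than in Col-0 (LUC). Between the mutants, 246 (5.16%) were lower and 556 (11.7%) higher in rls6 than in prors1 (LUC). Both mutants were compared with the same control libraries.

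Several sequences help to read the values that follow. The first pair are mature microRNAs, shown because the loci opposite them bear on which strand was counted. They are credited to RefSeq with the TAIR10.1 build, written 5′ to 3′, with the seed (bases 2 to 8) in capitals.
ath-miR408-3p: aUGCACUGccucuucccuggc
ath-miR824-5p: uAGACCAUuugugagaaggga
The next pair are promoters, from 250 bases before to 50 after the gene start, of flavonoid genes that lie opposite 2 of the 32 loci. F3H encodes flavanone 3-hydroxylase, an early enzyme of flavonol and anthocyanin synthesis (chr3:19024942-19025241, plus strand), and AT1G06000 encodes a flavonol rhamnosyltransferase (chr1:1821845-1822144, minus strand). Capitals mark, on either strand, the G-box CACGTG, the MYB motif ACCTACC and the TATA motif TATAAA.
F3H: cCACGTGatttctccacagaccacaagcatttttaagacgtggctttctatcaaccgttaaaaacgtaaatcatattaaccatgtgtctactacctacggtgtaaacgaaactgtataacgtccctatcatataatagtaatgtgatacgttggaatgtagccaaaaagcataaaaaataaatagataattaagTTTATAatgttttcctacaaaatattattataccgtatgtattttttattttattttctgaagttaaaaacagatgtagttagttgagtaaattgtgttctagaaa
AT1G06000: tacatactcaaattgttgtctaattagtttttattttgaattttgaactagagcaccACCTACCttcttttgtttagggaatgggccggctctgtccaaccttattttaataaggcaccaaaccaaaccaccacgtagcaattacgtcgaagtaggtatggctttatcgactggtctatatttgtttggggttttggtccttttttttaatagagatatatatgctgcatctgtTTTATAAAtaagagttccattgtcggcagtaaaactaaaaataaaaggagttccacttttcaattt
The last is a stretch of 240 bases of DEG6 (chr1:18948879-18949118, minus strand), shown because small RNAs from it could belong to either of a pair of genes. Capitals mark the 212 bases of this stretch that lie in 21-base windows shared with DEG16. Over the whole gene, DEG6 shares 236 such windows with DEG16.
DEG6: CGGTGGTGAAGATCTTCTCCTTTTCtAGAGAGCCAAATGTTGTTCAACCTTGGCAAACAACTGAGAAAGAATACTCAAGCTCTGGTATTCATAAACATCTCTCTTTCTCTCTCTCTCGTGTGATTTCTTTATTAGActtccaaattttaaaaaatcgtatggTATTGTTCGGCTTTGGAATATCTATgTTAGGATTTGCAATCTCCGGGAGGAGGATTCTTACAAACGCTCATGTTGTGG

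Which strand a read came from matters for these loci, since 14 of the 32 were overlapped by a locus on the opposite strand. Of 106 loci whose exons lay wholly within same-strand exons of other loci, 0 had a read. Of 942 loci that lay wholly opposite exons of the other strand, 679 (72.1%) had reads, against 78.4% of the 27092 loci with no overlap. Counting thus kept the strands apart.

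Loci with a small nucleolar RNA gene opposite an exon had a median of 152 and up to 973137 reads over the 9 libraries (19 loci). Those with such a gene on their own strand had a median of 4 and at most 58 (42 loci). Transfer RNA genes gave the same order, with a median of 927 over 7 loci for the opposite strand and 6 over 7 loci for the same strand. MicroRNA genes are not listed themselves, so loci that hold one in an exon were looked at as well. Of 27 loci with a mature microRNA opposite an exon, 5 held over 5000 reads, among them the loci opposite miR408 and miR824, whereas 0 of 39 with one on their own strand did. The highest of the 5 is TAS1B, a trans-acting siRNA locus with small RNAs of its own, and without it 4 of 26 held over 5000 reads. The medians of these microRNA groups were close, at 56 (53 without TAS1B) and 39 reads. The reads listed at a locus are therefore taken here to lie on the strand opposite to its annotated one. This check was chosen after the values were seen, and the strand setting of the counting is not stated in the labels.

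**Figure D1:**
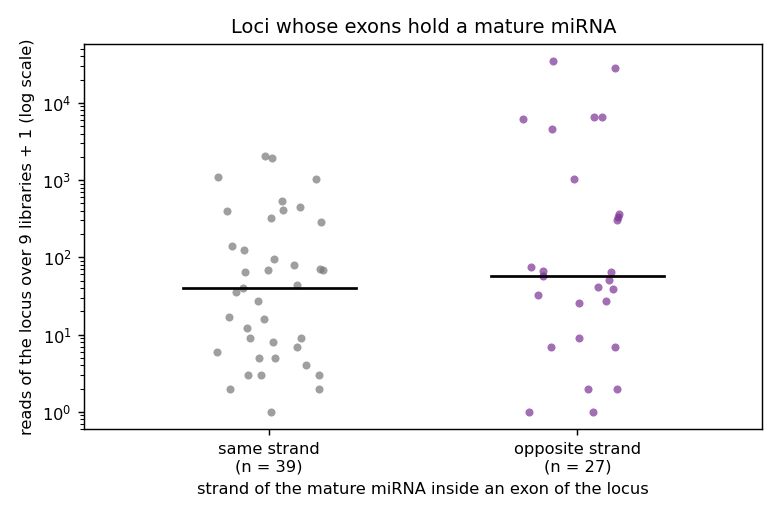
Reads over the 9 libraries (y axis, reads + 1, log scale) at loci whose exons hold a mature microRNA, by the strand of the microRNA (x axis). Points are loci and lines are medians; all 5 loci over 5000 reads, of which the highest is TAS1B, are in the opposite-strand group of 27.

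Summed over the 32 loci, the libraries held 1762, 1791 and 2106 normalized reads in the control, 569, 471 and 520.0 in the prors1 (LUC) libraries, and 578, 581 and 556 in those of rls6. The means were 1886 ± 191 (SD, n = 3), 520.2 ± 49.0 and 572 ± 13.5. The median difference in log2 x from Col-0 (LUC) was -2.00 in prors1 (LUC) and -1.62 in rls6, beside 0.01 and -0.02 over all tested loci. Of 1551 arm loci with a mean Col-0 (LUC) of at least 10, 40 (2.58%) met the margin between genotypes, and the limit on the mutants' likeness left the 32. In the opposite direction 67 of 1666 (4.02%) met the same margin. The filter on low values was passed by 29 of the 32.

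**Figure D2:**
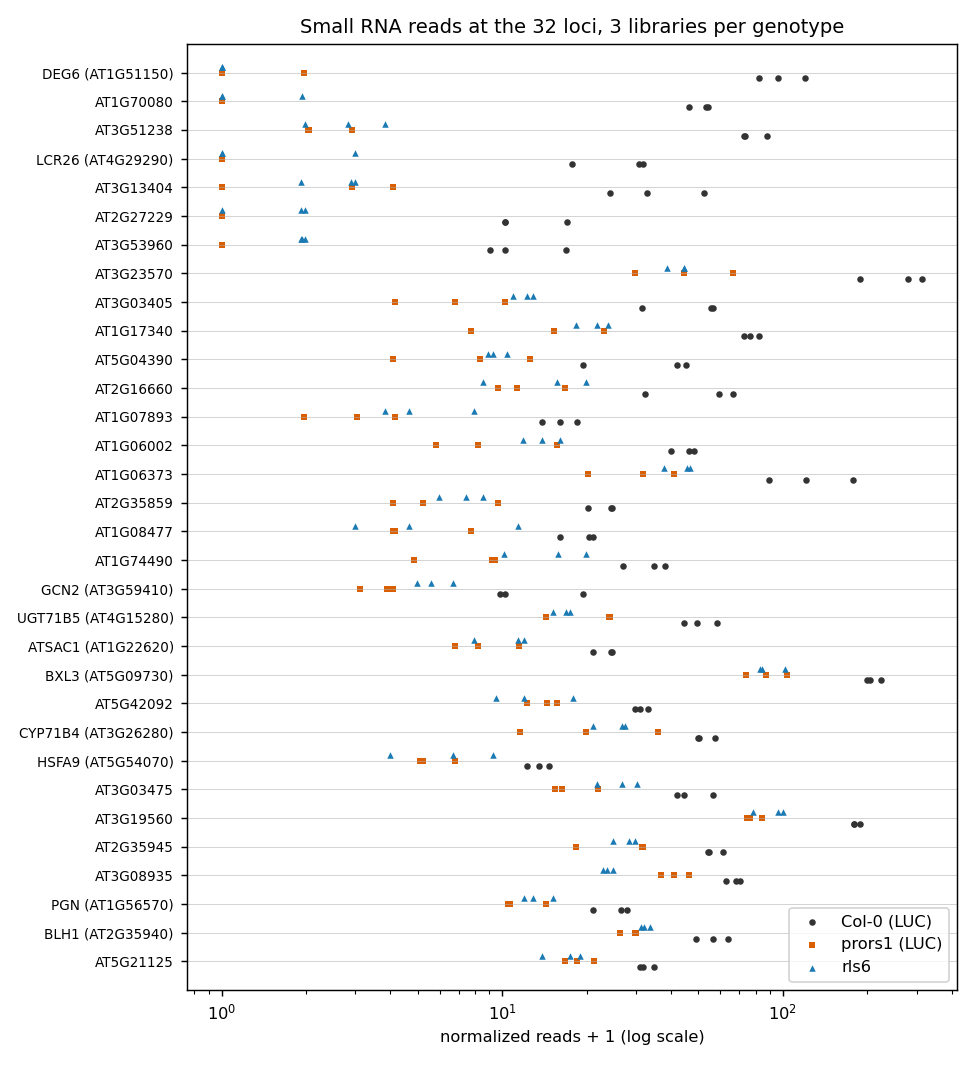
Normalized reads + 1 (x axis, log scale) in each library at the 32 loci (rows), ordered by the ratio of Col-0 (LUC) to the mutants. Points are libraries, 3 per genotype. Before 1 is added, DEG6, at the top, had 81.1 to 119 normalized reads in Col-0 (LUC) and at most 0.964 in the mutants.

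By pooled ratios, the 32 loci were split into 7 that were nearly empty in both mutants and 25 that kept part of their reads. The 7 had ratios, or lower bounds where a mutant had 0 reads, of at least 10 in each mutant. Together they gave 309 normalized reads in the control, 3.32 in the prors1 (LUC) mean and 6.04 in that of rls6. Among the other 25, ratios of pooled reads were 1.63 to 7.56 for prors1 (LUC) and 1.79 to 6.19 for rls6. Intervals on these ratios are exact 95% intervals and cover counting error only, and a group with 0 reads is set to a floor of 3 reads over the group. Some intervals overlap across the split. In rls6 they were 3.72 to 59.4 at AT3G53960, of the 7, and 5.14 to 7.49 at AT3G23570, of the 25.

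DEG6 (AT1G51150, chr1:18948370-18949290, minus strand), a member of the DegP protease family, had 95.3, 81.1 and 119 normalized reads in the control libraries, 0, 0.964 and 0 in those of prors1 (LUC), and 0, 0 and 0 in those of rls6. Its reads were 287-fold lower (interval 51.2 to 11373) in prors1 (LUC) and at least 102-fold lower in rls6. A single read remained over the 6 mutant libraries. DEG16 (AT5G54745), which shares 26.2% of the 21-base windows of DEG6, had 0 reads in all 9 libraries, so the reads of the stretch printed above were listed at DEG6 or at neither gene.

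AT1G70080 (chr1:26394492-26397603, minus strand) encodes a protein of the terpenoid cyclase family, enzymes that form terpene skeletons. It had 45.2, 53 and 52.3 normalized reads in the control libraries, 0, 0 and 0 in those of prors1 (LUC), and 0, 0.942 and 0 in those of rls6. The locus was at least 49.4-fold lower in prors1 (LUC) and 158-fold lower (interval 28 to 6286) in rls6. All Col-0 (LUC) libraries were high and close to each other, and 5 of the 6 mutant libraries had no read.

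AT3G51238 (chr3:19025110-19026779, minus strand) is a long non-coding RNA locus opposite F3H, with 84.7% of its exon bases facing F3H exons. It had 71.9, 72.3 and 87.1 normalized reads in the control libraries, 1.05, 1.93 and 1.03 in those of prors1 (LUC), and 1.83, 2.83 and 0.991 in those of rls6. Reads were 56.6-fold lower (interval 21.8 to 209) in prors1 (LUC) and 40.3-fold lower (interval 18.2 to 111) in rls6. By the strand check these reads lie on the strand of the F3H transcript. F3H itself, which would hold the reads of the other strand, had 1.67, 0 and 2.05 normalized reads in the control libraries, 1.05, 0 and 0 in those of prors1 (LUC), and 1.83, 0.942 and 3.96 in those of rls6. F3H had too few reads in every genotype to be tested.

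LCR26 (AT4G29290, chr4:14432640-14433084, minus strand) encodes a small cysteine-rich protein of the defensin-like class. The locus had 16.7, 29.7 and 30.7 normalized reads in the control libraries, 0, 0 and 0 in those of prors1 (LUC), and 0, 0 and 1.98 in those of rls6. It was at least 25.2-fold lower in prors1 (LUC) and 40.3-fold lower (interval 10.8 to 338) in rls6. Reads remained in 1 mutant library only.

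AT3G13404, which encodes an uncharacterized protein (chr3:4358179-4359007, minus strand), had 31.8, 23.3 and 51.2 normalized reads in the control libraries, 0, 1.93 and 3.08 in those of prors1 (LUC), and 0.916, 1.88 and 1.98 in those of rls6. This locus was 20.3-fold lower (interval 8.45 to 63.7) in prors1 (LUC) and 21.7-fold lower (interval 9.02 to 67.9) in rls6. It overlaps MIR169a by 14 bases on the same strand, with no mature microRNA inside, and the defensin-like gene AT3G13403, which lies within it and had 0 reads in all libraries.

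AT2G27229, of the pentatricopeptide repeat family of organelle RNA-binding proteins (chr2:11649057-11649998, plus strand), had 9.2, 16.1 and 9.22 normalized reads in the control libraries, 0, 0 and 0 in those of prors1 (LUC), and 0.916, 0 and 0.991 in those of rls6. It was at least 11.6-fold lower in prors1 (LUC) and 18.5-fold lower (interval 4.8 to 158) in rls6. AT3G53960, a transporter gene of the major facilitator superfamily (chr3:19978122-19981086, minus strand), had 15.9, 8.03 and 9.22 normalized reads in the control libraries, 0, 0 and 0 in those of prors1 (LUC), and 0.916, 0.942 and 0.991 in those of rls6, and was at least 11-fold lower in prors1 (LUC) and 11.7-fold lower (interval 3.72 to 59.4) in rls6. Both stood close to the required 10 reads.

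**Figure D3:**
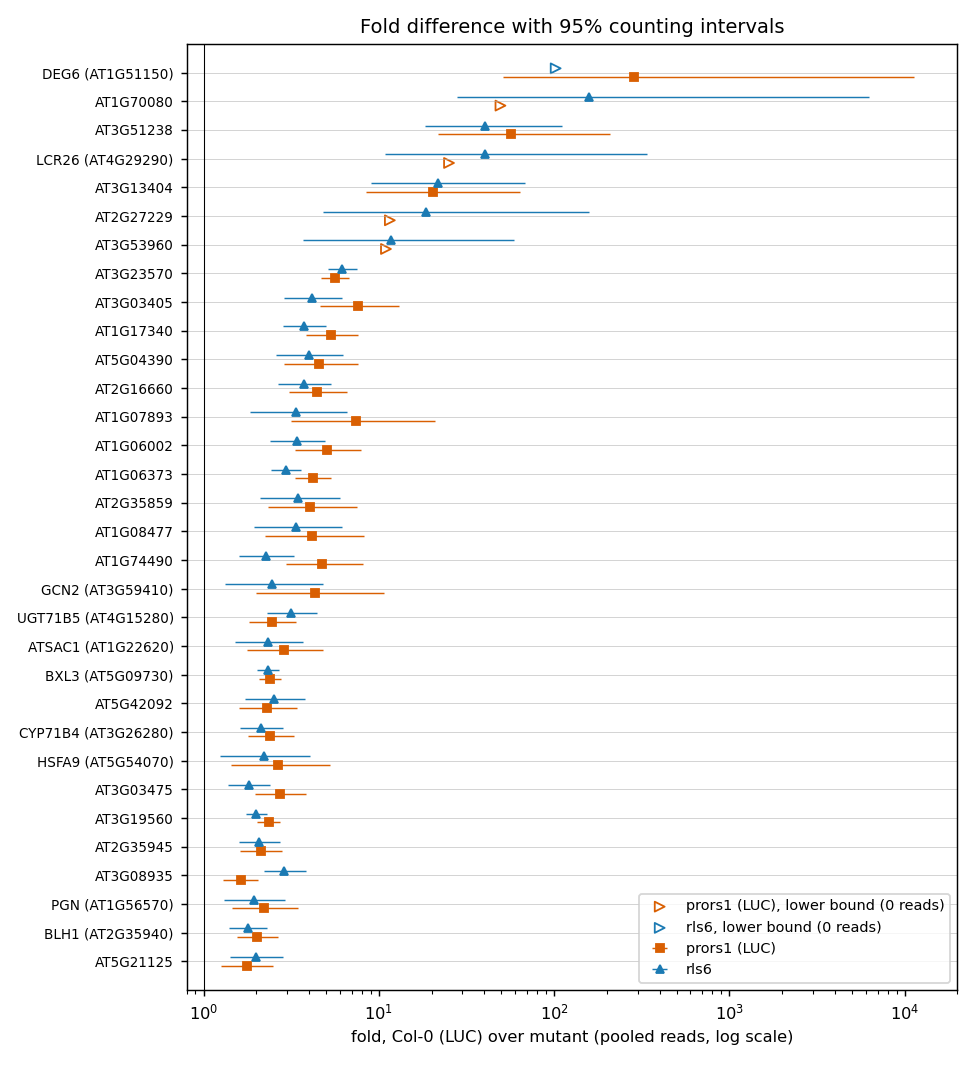
Ratio of Col-0 (LUC) to mutant reads, pooled over 3 libraries (x axis, log scale), at each locus (rows). Filled points have bars for exact 95% counting intervals and open triangles are lower bounds where a mutant had 0 reads; the top 7 rows are at 10 or above in both mutants and the other 25 below.

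Enzyme genes among the other 25 included AT3G23570, BXL3, UGT71B5 and CYP71B4. AT3G23570 (chr3:8457767-8459990, minus strand), of the alpha/beta-hydrolase family, had 187, 278 and 314 normalized reads in the control libraries, 65.2, 43.4 and 28.7 in those of prors1 (LUC), and 37.6, 43.4 and 43.6 in those of rls6. It was 5.63-fold lower (interval 4.69 to 6.8) in prors1 (LUC) and 6.19-fold lower (interval 5.14 to 7.49) in rls6. BXL3 (AT5G09730, chr5:3014894-3018342, minus strand), a beta-xylosidase acting on cell wall sugars, had 204, 198 and 223 normalized reads in the control libraries, 86.3, 73.2 and 103 in those of prors1 (LUC), and 101, 82 and 83.3 in those of rls6. BXL3 was 2.38-fold lower (interval 2.06 to 2.76) in prors1 (LUC) and 2.33-fold lower (interval 2.03 to 2.69) in rls6, with narrow intervals that come from its many reads. UGT71B5, a glucosyltransferase, had means of 49.8 ± 7.09 for the control, 19.9 ± 5.66 for prors1 (LUC) and 15.5 ± 1.22 for rls6, and CYP71B4, a cytochrome P450, had 51.6 ± 4.16 for the control, 21.5 ± 12.3 for prors1 (LUC) and 24.1 ± 3.43 for rls6. The spread among prors1 (LUC) libraries was wide at CYP71B4, yet the highest of them stayed below every Col-0 (LUC) library, as the rule requires.

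F-box proteins select targets for ubiquitination. The F-box gene AT3G19560 (chr3:6793311-6794802, plus strand) had 178, 188 and 178 normalized reads in the control libraries, 83.1, 75.2 and 73.8 in those of prors1 (LUC), and 98.9, 95.2 and 77.3 in those of rls6, and was 2.35-fold lower (interval 2.02 to 2.75) in prors1 (LUC) and 2.0-fold lower (interval 1.74 to 2.31) in rls6. AT3G03405 (chr3:809875-810795, minus strand), annotated as an F-box associated effector, had 54.4, 30.5 and 55.3 normalized reads in the control libraries, 3.16, 5.78 and 9.23 in those of prors1 (LUC), and 11.9, 11.3 and 9.91 in those of rls6. It was 7.56-fold lower (interval 4.63 to 13.1) in prors1 (LUC) and 4.15-fold lower (interval 2.86 to 6.17) in rls6. All 3 prors1 (LUC) libraries lay under all 3 rls6 libraries there.

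Both phosphoinositide phosphatase genes among the 32 loci encode enzymes that remove phosphate from membrane lipids. AT1G17340 (chr1:5933780-5938817, plus strand) had 75.3, 71.5 and 81 normalized reads in the control libraries, 22.1, 6.75 and 14.4 in those of prors1 (LUC), and 17.4, 20.7 and 22.8 in those of rls6. It was 5.33-fold lower (interval 3.83 to 7.57) in prors1 (LUC) and 3.73-fold lower (interval 2.83 to 4.99) in rls6. ATSAC1 (AT1G22620) had means of 22.4 ± 1.97 for the control, 7.83 ± 2.44 for prors1 (LUC) and 9.43 ± 2.18 for rls6. The protein kinase genes were AT1G74490, with 32.2 ± 5.69 for the control, 6.83 ± 2.58 for prors1 (LUC) and 14.3 ± 4.87 for rls6, and GCN2 (AT3G59410), the kinase of translation factor eIF2-alpha, with 12.2 ± 5.45 for the control, 2.69 ± 0.516 for prors1 (LUC) and 4.73 ± 0.855 for rls6. The transporter gene AT2G16660 of the major facilitator superfamily had 51.7 ± 17.9 for the control, 11.6 ± 3.73 for prors1 (LUC) and 13.7 ± 5.71 for rls6.

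Transcription factor genes among the loci were BLH1, HSFA9 and the zinc finger gene AT5G04390. BLH1 (AT2G35940, chr2:15088762-15092415, minus strand), a BEL1-like homeodomain factor, had 62.7, 55.4 and 48.2 normalized reads in the control libraries, 25.3, 28.9 and 28.7 in those of prors1 (LUC), and 30.2, 31.1 and 32.7 in those of rls6. BLH1 was 2.02-fold lower (interval 1.55 to 2.65) in prors1 (LUC) and 1.79-fold lower (interval 1.39 to 2.3) in rls6. HSFA9, a heat shock factor of seeds, had means of 12.5 ± 1.19 for the control, 4.7 ± 0.94 for prors1 (LUC) and 5.62 ± 2.64 for rls6, and AT5G04390 had 34.6 ± 14.1 for the control, 7.34 ± 4.24 for prors1 (LUC) and 8.53 ± 0.788 for rls6. PGN (AT1G56570), a pentatricopeptide repeat protein, had 24.2 ± 3.57 for the control, 10.8 ± 2.18 for prors1 (LUC) and 12.3 ± 1.62 for rls6, and the uncharacterized AT5G21125 had 31.5 ± 1.94 for the control, 17.8 ± 2.25 for prors1 (LUC) and 15.8 ± 2.59 for rls6.

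Of the 32 loci, 10 (31.2%) were long non-coding RNAs and 22 (68.8%) coding genes, with 0 pseudogenes. Among the 1714 tested arm loci, 12.5% were long non-coding RNAs, 57.2% coding genes and 28.6% pseudogenes. Of the 10 non-coding loci, 8 lay opposite a coding gene. More than 70% of exon bases faced the other strand at 7 of the 10, against 26.5% of the 215 tested arm loci of that class. For all 32 the share was 21.9%, against 5.54% of the tested arm loci.

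AT2G35945 (chr2:15090519-15091764, plus strand) lies opposite BLH1, and these are the only pair of the 32 that overlap. It had 53.5, 53 and 60.5 normalized reads in the control libraries, 30.5, 17.3 and 30.8 in those of prors1 (LUC), and 23.8, 27.3 and 28.7 in those of rls6. AT2G35945 was 2.13-fold lower (interval 1.62 to 2.81) in prors1 (LUC) and 2.08-fold lower (interval 1.6 to 2.73) in rls6. The rule required each of these loci to be lower in both mutants, so nothing is read from the pair. Reads were counted per locus and only 29.8% of BLH1 exon bases face AT2G35945. Whether the BLH1 reads lie on the shared stretch is not known.

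The other 7 facing genes were not among the 32, and their group means were at most 15.5 normalized reads. AT1G06002, opposite the rhamnosyltransferase gene AT1G06000 over 96.7% of its exon bases, had 45.2, 47.4 and 38.9 normalized reads in the control libraries, 14.7, 4.82 and 7.18 in those of prors1 (LUC), and 12.8, 15.1 and 10.9 in those of rls6. AT1G06000 itself had 3.34, 7.23 and 9.22 normalized reads in the control libraries, 12.6, 1.93 and 9.23 in those of prors1 (LUC), and 6.41, 2.83 and 5.95 in those of rls6, with overlapping genotypes. AT5G42092 had means of 30.3, 13.2 and 12.1 in the control, prors1 (LUC) and rls6, while AT5G42090, the receptor-like gene opposite all of it, had 12.5, 15.5 and 12.4. AT5G42090 was the 1 gene of the 7 with enough reads to test, with limma adjusted p = 0.548 in prors1 (LUC) and 0.997 in rls6.

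In the same order of genotypes, means were 15.1, 2.06 and 4.48 at AT1G07893 and 2.75, 0.672 and 2.56 at MUM4, the rhamnose synthase gene of seed mucilage that it faces. AT1G08477 had 18.2, 4.33 and 5.34, and APR2, a sulfate assimilation gene opposite it, had 0.268, 3.35 and 3.8. AT2G35859 had 22.1, 5.32 and 6.3, and FLA16, a cell surface arabinogalactan protein gene, had 1.16, 1.72 and 2.22. AT3G03475 had 46.6, 17 and 25.2, and MTO3, an S-adenosylmethionine synthetase gene, had 4.14, 2.75 and 4.11. As at F3H, reads listed at a non-coding locus lie, by the strand check, on the strand of the coding gene it faces. The coding locus would hold the reads of the other strand, and at each of these pairs it had too few to be tested. The rule required the non-coding loci to be lower in both mutants, so nothing is read from the pairs.

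The non-coding loci with no facing gene were AT1G06373 and AT3G08935. AT1G06373 (chr1:10954288-10954711, plus strand) had 88.6, 119.7 and 177 normalized reads in the control libraries, 39.987, 19.3 and 30.8 in those of prors1 (LUC), and 45.8, 36.8 and 44.6 in those of rls6. AT3G08935 (chr3:21267424-21267750, minus strand) had 66.9, 61.9 and 69.7 normalized reads in the control libraries, 35.8, 45.3 and 40.001 in those of prors1 (LUC), and 23.8, 22.6 and 21.8 in those of rls6. AT3G08935 was 1.63-fold lower (interval 1.3 to 2.05) in prors1 (LUC) and 2.89-fold lower (interval 2.21 to 3.83) in rls6, and is the 1 locus of the 32 at which all rls6 libraries lay under all prors1 (LUC) libraries. The reverse, with all prors1 (LUC) libraries lower, was seen at 5 loci. Over the 1551 loci outside the ID ranges with a control mean of at least 10, these shares were 10.9% and 27.7%. By mean, prors1 (LUC) was the lower mutant at 25 of the 32 and rls6 at 7, against 59.2% and 40.8% of the 1551. The rule used the values of both mutants, so nothing is read from these counts.

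**Figure D4:**
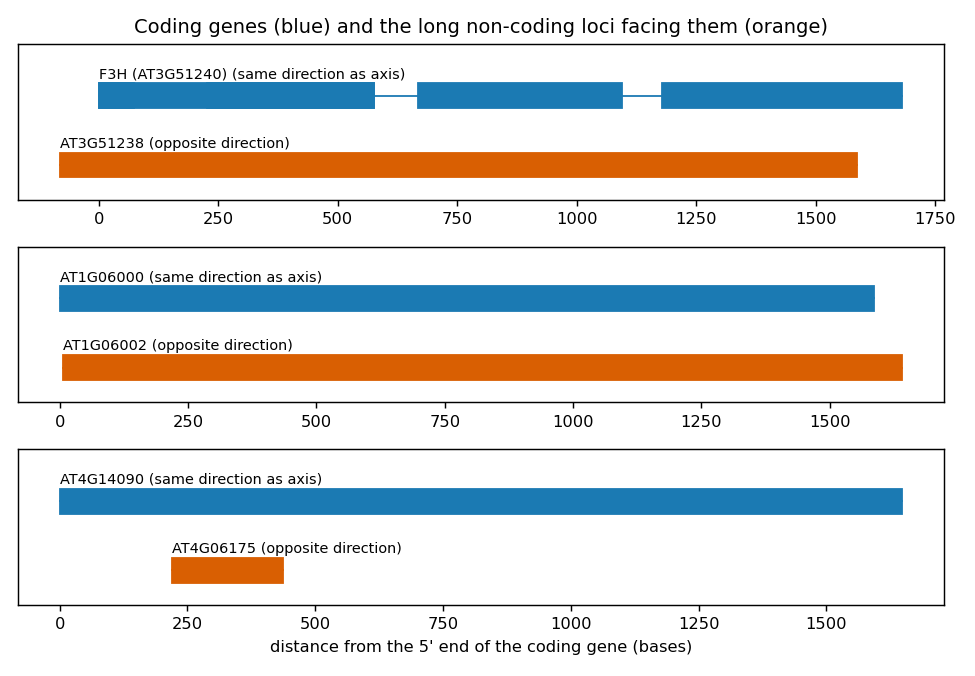
Exons (boxes) of 3 coding genes and of the non-coding loci opposite them, by distance from the 5′ end of the coding gene (x axis, bases). AT3G51238 and AT1G06002, of the 32 loci, cover nearly the whole gene they face, and AT4G06175, which is not among the 32, covers 217 bases.

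Other loci that overlap the 32 had few reads. Over the 3 genotypes in the same order, means were 1.37, 1.71 and 0.636 at AT1G22610, opposite ATSAC1, and 0.279, 0.351 and 0 at SVB, opposite PGN. RNR2A, a ribonucleotide reductase gene opposite AT3G23570, had 0, 0.351 and 0.33, and GUN4, a chlorophyll synthesis gene opposite GCN2, had 0.951, 0.342 and 1.55. The small nucleolar RNA gene U3D, opposite HSFA9, had 2.31, 1.64 and 3.15, and AT1G62170, which overlaps AT1G08477 by 57 bases on the same strand, had 5.11, 2.33 and 1.28. By the strand check, fragments of U3D itself would be listed at HSFA9, where 14.9% of exon bases face the other strand. Whether the HSFA9 reads are such fragments was not tested.

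The loci were mostly of unique sequence. More than 90% of 21-base windows occurred only once in the genome at 28 of the 32 (87.5%), against 58.1% of the tested arm loci and 64.4% of those that are not pseudogenes. An inverted repeat match of at least 50 aligned bases within the locus was found in 2 (6.25%), against 3.56% of tested arm loci. At both, AT2G16660 (104 aligned bases) and CYP71B4 (53), the stretch matched itself in reverse. Each arm of these repeats is therefore shorter than the aligned length. Median length was 1684 bases against 1563, and median GC content 39.4% against 38.9%. The median distance to the nearest pseudogene was 38.6 kb, against 20.3 kb for the tested arm loci that are not pseudogenes. A site complementary to a mature microRNA, with at most 3 mismatches to any of 350 sequences, was found in 1 (3.12%), PGN with miR414, against 10.1%.

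Motifs were searched on both strands in the promoters of the 32 loci and of all 37051 annotated loci. CACGTG was in 2 (6.25%) against 6.53%, TATAAA in 15 (46.9%) against 48.8%, ACCTACC in 0 against 1.34% and ACCAACC in 0 against 3.39%. Among the promoters of the 8 facing genes, TATAAA was in 6, CACGTG in 1, the motif ACCTACC in 1 and ACCAACC in 0. Chromosomes 1 to 5 held 10, 5, 10, 2 and 5 of the loci. The median gap between next loci was 1.78 Mb, and only 2 pairs were under 100 kb apart, both around BLH1. None lay within the pericentromeric spans, the nearest being 0.860 Mb away. The spans were drawn from loci with the numbers that the rule left out, so this is largely set by the rule.

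Most loci beside the 32 had too few reads to test. The 5 nearest loci on each side gave 308 neighbours, of which 255 had fewer than 10 reads over the 9 libraries and 22 could be tested. In limma fits, 2 of the 22 (9.09%, against 6.63% of all tested loci) were lower in prors1 (LUC) and 3 (13.6%, against 7.74%) were higher. In rls6, 1 (4.55%, against 4.95%) was lower and 7 (31.8%, against 12.7%) were higher. Summed neighbour reads were 3423 ± 136 (SD, n = 3) in the control, 3878 ± 120.3 in prors1 (LUC) and 3815 ± 36.7 in rls6. The F-box gene AT3G17400, named because of its weight in this sum, had means of 1037, 1488 and 1330.2. It was among the higher calls in prors1 (LUC) (log2 fold change 0.52 ± 0.10 (SE), limma adjusted p = 6.31e-04) and in rls6 (log2 fold change 0.36 ± 0.10 (SE), limma adjusted p = 0.0103). The higher sums in the mutants thus rest largely on this locus and do not describe the neighbours in general.

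**Figure D5:**
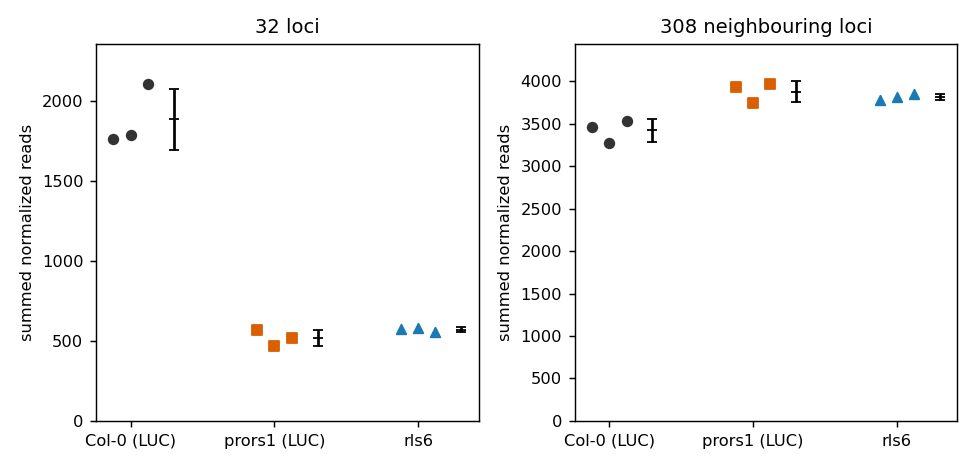
Summed normalized reads (y axis) per library of the 32 loci (left) and of their 308 neighbours (right), by genotype. Points are libraries, and bars are mean ± SD (n = 3); the 32 loci fall from 1886 to 520.2 and 572, while the neighbours are at 3423, 3878 and 3815.

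Near AT1G07893, neighbours were higher in both mutants. AT1G07887, a non-coding locus 3.58 kb from AT1G07893, had 1.67, 3.21 and 4.1 normalized reads in the control libraries, 114, 109.9 and 83.1 in those of prors1 (LUC), and 44.9, 53.7 and 53.5 in those of rls6. It was higher in prors1 (LUC) (log2 fold change 4.73 ± 0.24 (SE), limma adjusted p = 1.86e-12) and in rls6 (log2 fold change 3.74 ± 0.24 (SE), limma adjusted p = 3.61e-11). MRD1, which overlaps AT1G07887 on the opposite strand, had means of 10.6, 69.5 and 68 and was also higher in prors1 (LUC) (log2 fold change 2.65 ± 0.22 (SE), limma adjusted p = 5.43e-09) and rls6 (log2 fold change 2.62 ± 0.22 (SE), limma adjusted p = 2.02e-09). Reads were thus higher in both mutants at both of these loci, which lie on opposite strands.

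Near AT3G08935, the zinc finger gene AT3G57480 had 681, 647 and 652 normalized reads in the control libraries, 458, 500.1 and 504 in those of prors1 (LUC), and 236, 208 and 210.1 in those of rls6. It was lower in prors1 (LUC) (log2 fold change -0.44 ± 0.09 (SE), limma adjusted p = 0.0018) and rls6 (log2 fold change -1.59 ± 0.09 (SE), limma adjusted p = 6.74e-12). Its call in prors1 (LUC) was lost without the trend (limma adjusted p = 0.0526). LCR25, a gene of the same family 3.06 kb from LCR26, had 36, 54.6 and 57.4 normalized reads in the control libraries, 19.993, 23.1 and 25.6 in those of prors1 (LUC), and 44.9, 58.4 and 54.5 in those of rls6. LCR25 was lower in prors1 (LUC) (log2 fold change -1.05 ± 0.20 (SE), limma adjusted p = 6.21e-04), and in rls6 the value was log2 fold change 0.11 ± 0.20 (SE), limma adjusted p = 0.778. LCR27, the tested locus nearest to LCR26 at 0.907 kb and named after its values were seen, had means of 126, 118 and 117. The fits gave log2 fold change -0.09 ± 0.13 (SE), limma adjusted p = 0.733 for prors1 (LUC) and log2 fold change -0.09 ± 0.13 (SE), limma adjusted p = 0.739 for rls6.

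Other neighbours were higher in rls6 but missed the threshold in prors1 (LUC). The kinase gene AT2G16620, near AT2G16660, had means of 14, 17.6 and 149 (log2 fold change 3.37 ± 0.22 (SE), limma adjusted p = 4.42e-11 in rls6). AT3G53910, near AT3G53960, had 48.4, 63.2 and 167 (log2 fold change 1.79 ± 0.15 (SE), limma adjusted p = 3.18e-09). In prors1 (LUC) its limma adjusted p was 0.0856, and 0.0183 without Col-0 (LUC) replicate 1. The non-coding loci AT5G00955 and AT5G00960, which overlap on opposite strands near AT5G04390, had 65.7, 64.3 and 188 (log2 fold change 1.52 ± 0.16 (SE), limma adjusted p = 1.23e-07) and 27.3, 29.9 and 98.7 (log2 fold change 1.88 ± 0.23 (SE), limma adjusted p = 1.12e-06). In the fit between the mutants, rls6 was higher than prors1 (LUC) at all 4 of these loci, by log2 fold changes of 3.01 ± 0.22 (SE) at AT2G16620, 1.39 ± 0.15 at AT3G53910, 1.55 ± 0.16 at AT5G00955 and 1.71 ± 0.23 at AT5G00960, with limma adjusted p from 4.98e-10 to 5.96e-06.

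Genes of the small RNA pathways gave little that could be tested at their own loci, and these values are small RNA reads, not transcript levels. Of 22 components of RNA-directed DNA methylation and 8 members of the RBP45 and RBP47 family of RNA-binding proteins, 0 had enough reads. Of 9 dicer, RNA-dependent polymerase and Argonaute genes of other pathways, 4 were tested. In prors1 (LUC), DCL4 was higher (means 22.2 in the control and 42.5, limma adjusted p = 0.0329) and AGO1 lower (44.8 and 30.2, limma adjusted p = 0.0375), and both calls were lost with DESeq2 or without the trend. In rls6, 0 were called with limma, edgeR or DESeq2, and 0 had an unadjusted p under 0.05. All 8 trans-acting siRNA loci were tested. AT3G25795, which the rule left out, was lower in both mutants, with means of 2326, 512 and 596, and TAS3b was higher in rls6.

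Each limit of the rule had loci close by. At the margin, HSFA9 (1.33), AT1G74490 (1.36) and AT3G08935 (1.36) lay just inside, and AT2G41178 (1.28), AT5G01155 (1.27) and AT3G27250 (1.25) just outside. For mean Col-0 (LUC) reads, AT3G53960 (11.0), AT2G27229 (11.5) and GCN2 (12.2) were inside, and AT1G04247 (9.96), AT1G09823 (9.49) and CKI1 (9.34) outside. For the fold between the mutants, AT1G74490 (1.95), AT3G53960 (1.95) and AT1G07893 (1.79) were inside, and AT4G20362 (2.02), AT5G67120 (2.13) and IRX15-L (2.84) outside.

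In the authors' deposited table, whose values follow prors1 (LUC) over Col-0 (LUC), all 32 loci have negative log2 fold changes and 30 have an adjusted p under 0.05, the others being HSFA9 and AT5G21125. There 197 of 7375 loci (2.67%) are lower calls. It holds the same libraries, so nothing is read from this count.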

How the data were processed

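Small RNA libraries of 3 genotypes, 3 each, were grouped by title and genotype label. The submitters' processing notes name Trimmomatic, FastQC, Bowtie2, featureCounts and TAIR10. Their versions, their settings and how multi-mapping reads were handled were not stated there. The deposited signal values are read counts divided by a size factor per library (0.950 to 1.24), called normalized reads. All were whole multiples of a step within 1e-06, so whole reads were recovered for 100% of values. The deposited table also holds the authors' log2 fold changes, a Wald score and p-values.

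Because the values are normalized, limma 3.58.1 (under R 4.3.3) was run with its mean-variance trend on log2(normalized reads + 1), over 9 libraries with genotype as the only term, for loci reaching 10 normalized reads in 3 or more libraries, with Benjamini-Hochberg adjustment; it was tested on simulated data. Fold changes on this scale understate those of low loci. edgeR 4.0.16 and DESeq2 1.42.0 on recovered reads were alternatives. Annotation and sequences were RefSeq TAIR10.1; repeats were found with blastn 2.17.0. Replicate libraries differed by more than sampling noise (chi-square per degree of freedom 1.49 to 7.13).

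The members and lists were chosen with earlier results of these data known. All members are named; values in every library are given for the 10 with most Col-0 (LUC) reads and the 10 with the largest ratio, and up to 8 neighbours by smallest adjusted p.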

Additional observations from a re-analysis of the deposited data

How the results depend on the processing

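The number of loci meeting the rule was 12 with a margin of 2, all among the 32, and 49 with a minimum of 5 reads, including all 32. It was 44 with scaling to library totals, 31 of them shared, and 32 to 45 with each library left out in turn. The median log2 difference became -1.47 in prors1 (LUC) and -1.31 in rls6 with a pseudocount of 5. In rls6 it was -1.68 with 0.5 and -1.74 with library totals. Leaving out each library gave -2.05 to -1.82 and -1.67 to -1.50.

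Lower calls in prors1 (LUC) were 196 without a trend and 158 with DESeq2, and higher calls 233 and 205. In rls6, lower calls were 434 with upper-quartile scaling and 104 with DESeq2. Between the mutants, lower calls were 152 with no filter, 401 with upper-quartile scaling, 146 without a trend and 92 with DESeq2. With each library left out, lower calls were 202 to 298 in prors1 (LUC), 134 to 269 in rls6 and 160 to 275 between the mutants, and higher calls 279 to 427, 493 to 638 and 442 to 576. Without Col-0 (LUC) replicate 3, lower calls were 202 and 134 in the mutants. Without rls6 replicate 2, 151 were lower in rls6. Without rls6 replicate 3, 160 were lower between the mutants.

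Lower neighbours were 1 in prors1 (LUC) without a trend and 2 in rls6 with no filter. With libraries left out, they stayed at 2 and 1, and higher neighbours were 3 to 4 and 6 to 7. Called trans-acting siRNA loci were 5 in each mutant with no filter, and 1 to 3 in prors1 (LUC) and 2 to 3 in rls6 with libraries left out. Called dicer and Argonaute genes in prors1 (LUC) were 0 without a trend, with DESeq2 and with only the 2 genotypes compared, and 0 to 2 with libraries left out; in rls6, 1 was called with no filter. The cause was not tested.

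Same-numbered libraries correlated at -0.02 to 0.15 in their deviations, so the numbers were not taken to pair them. With the replicate block, calls were 373 lower and 452 higher in prors1 (LUC), 307 and 660 in rls6, and 299 and 610 between the mutants, and 3 trans-acting siRNA loci were called in prors1 (LUC). Near 1 read the depth sets what can be seen: a locus at 0 reads may still have a low level.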

Other observations

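A further non-coding locus opposite a flavonoid gene had a pattern like that of AT3G51238. AT4G06175 (chr4:8123399-8123615, plus strand) lies opposite AT4G14090, an anthocyanin glucosyltransferase gene, over 100% of its exon bases. It had 13.4, 7.23 and 13.3 normalized reads in the control libraries, 0, 0 and 0 in those of prors1 (LUC), and 0, 0.942 and 0 in those of rls6. Pooled reads were 38 for the control, 0 for prors1 (LUC) and 1 for rls6, which is at least 11.0-fold lower in prors1 (LUC) and 35.2-fold lower in rls6 (interval 5.94 to 1425). It met each limit but for its number, which lies in a pericentromeric range, although its position does not. Its likeness to AT3G51238 is thus set by the limits on the values, and nothing is read from it. Of 13 loci left out for their numbers alone, 5 lay outside the pericentromeric spans by position. The 14 flavonoid and anthocyanin genes looked up after these values were seen had fewer than 10 normalized reads in every group mean. By the strand check, these counts cover only reads on the strand opposite to the transcript of the gene. Reads on the strand of the transcript would be listed only where a locus faces the gene. Loci facing these genes numbered 5, among them AT4G06175, AT3G51238 and AT1G06002. The others were AT5G13940, opposite TT4, and AT4G14100, also opposite AT4G14090. Pooled reads in the control, prors1 (LUC) and rls6 were 3, 3 and 2 at AT5G13940 and 10, 1 and 0 at AT4G14100. Genes of the list other than TT4, F3H, AT1G06000 and AT4G14090 had no facing locus, so small RNAs on the strand of their transcripts were not seen here.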
